A study of Mus musculus with 6 samples.

Results

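Astrocytes were represented here by 9 genes, chosen by the gene symbol in the deposited tables: Slc1a2, Slc1a3, Glul, Aqp4, Gfap, Aldh1l1, S100b, Aldoc and Sox9. All 9 were found among the 19943 genes listed in the tables, and all 9 were among the 15169 genes that passed the filter on low counts. The study sequenced RNA from the medial prefrontal cortex of C57BL/6 mice, with 3 libraries of mice kept in social isolation for 3 weeks after weaning (SI 1 to SI 3) and 3 libraries of control mice (Control 1 to Control 3). Both groups carry an age label of 6 weeks, whereas the design text of the series gives 7 weeks, and these were not reconciled. The labels name no genetic change, do not state sex or control housing, and do not say that libraries came from separate animals, so p-values measure the spread between libraries, which may be technical.

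Astrocytes take up the glutamate that neurons release, through the transporters GLT-1 (Slc1a2) and GLAST (Slc1a3), and convert it with glutamine synthetase (Glul) to glutamine, which returns to neurons as a precursor for new transmitter. The other genes are used to recognise the cell type. Aqp4 forms the water channel of the endfeet that astrocytes place on blood vessels, Gfap their intermediate filament, and Aldh1l1 an enzyme of folate metabolism. S100b encodes a calcium-binding protein that some oligodendrocytes also make, Aldoc the brain form of the glycolytic enzyme aldolase, and Sox9 a transcription factor that starts gliogenesis.

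No astrocyte gene differed between SI and control mice past the test's threshold. With edgeR's quasi-likelihood test, 0 of 9 members had a Benjamini-Hochberg adjusted p under 0.05, as did 0% of the 15169 tested genes. The size of the differences was small: the log2 fold change of SI over Control lay between -0.30 for Aqp4 and 0.02 for Glul, with a median of -0.08 (-0.09 without SI 3 and Control 2), against a median of -0.0018 over all tested genes. The estimate was below 0 for 8 of the 9 members and for 50.8% of all tested genes. Values of the 2 groups were apart for 2 members, Slc1a2 and Aqp4, both lower in every SI library, where 4.73% of all tested genes were apart in that direction, 4.12% in the other and 8.85% in either. At an unadjusted p under 0.05 stood 1 of 9 members, Aqp4, and 3.53% of all tested genes, 1.52% higher and 2% lower in SI. DESeq2 called 0 of 9 members and 0.00659% of all tested genes.

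Expected counts per library totalled 18390902 to 18606573 in SI and 18226448 to 18544306 in Control. The members took 0.562% to 0.574% of the counts in SI libraries and 0.589% to 0.606% in Control libraries. Slc1a2, itself lower in every SI library, weighs most in this share. It gave 50243 to 52919 of the 104600 to 105600 member counts in SI libraries. In Control libraries it gave 54949 to 58266 of 107300 to 111300, so the share does not describe the members evenly. In bulk tissue, fewer astrocytes, less RNA per astrocyte and more RNA from other cells cannot be told apart. Markers of striatal projection neurons, the main cells of the neighbouring striatum, set SI 3 and Control 2 apart, with summed levels of 1102 FPKM in SI 3 and 1512 FPKM in Control 2 against 186 to 495 FPKM in the other libraries. FPKM is the level of a gene scaled to its length and to the depth of the library. For the members and the gene lists, log2 values are therefore given also without both of these libraries, beside the range with any 1 of the 6 libraries left out where it is wide.

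**Figure D1:**
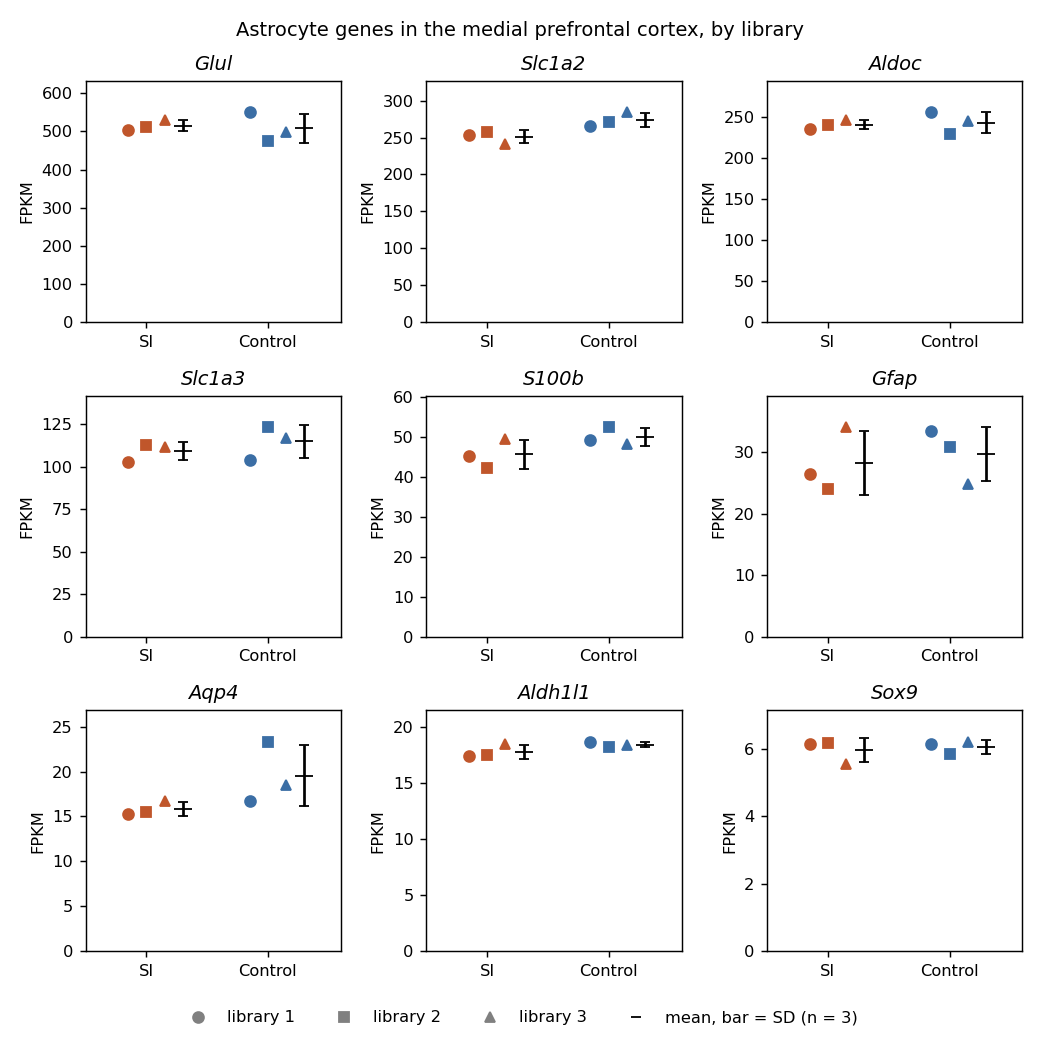
FPKM of the 9 astrocyte genes (vertical axes, each from 0) in the 3 SI and 3 Control libraries (points, one marker shape per library number), with the mean and SD of each group in black. The SI points of Slc1a2 (242 to 258 FPKM) and Aqp4 (15.2 to 16.7 FPKM) lie below all Control points, and the groups overlap for the other genes.

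The levels of the 9 genes spanned a wide range per unit length. Glul was the most abundant at 515 ± 13.9 FPKM in SI and 508 ± 37.9 FPKM in Control libraries (SD, n = 3 each), rank 46 of the tested genes. Slc1a2 and Aldoc followed, and Slc1a2 exceeded Aldoc in 2 of 3 SI and 3 of 3 Control libraries, so that these neighbours in the order did not separate in the SI group. Slc1a3 came next, then S100b and Gfap. Aqp4 and Aldh1l1 lay close together: Aqp4 was above Aldh1l1 in 0 of 3 SI libraries and in 2 of 3 Control libraries. Sox9 was the least abundant, and its 430 to 477 expected counts in SI and 443 to 475 in Control libraries give it the widest counting error, whereas Slc1a2 rested on 50243 to 52919 counts in SI and 54949 to 58266 in Control libraries.

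The start regions of 3 members are shown, the transporter Slc1a3, the most abundant member Glul and the most variable marker of SI libraries, Gfap. Each window runs from 250 bases before to 50 after the annotated gene start (RefSeq, GRCm38.p6), 5′ to 3′ on the strand of the gene, and capitals mark the motif matches described next.
Slc1a3 (chr15:8710758-8711057, minus strand): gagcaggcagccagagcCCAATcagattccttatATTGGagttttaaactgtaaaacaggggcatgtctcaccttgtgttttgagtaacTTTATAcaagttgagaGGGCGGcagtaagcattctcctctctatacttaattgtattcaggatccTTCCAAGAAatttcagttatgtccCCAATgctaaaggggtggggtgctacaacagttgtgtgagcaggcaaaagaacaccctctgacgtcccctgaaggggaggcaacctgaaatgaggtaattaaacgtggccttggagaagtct
Glul (chr1:153899679-153899978, plus strand): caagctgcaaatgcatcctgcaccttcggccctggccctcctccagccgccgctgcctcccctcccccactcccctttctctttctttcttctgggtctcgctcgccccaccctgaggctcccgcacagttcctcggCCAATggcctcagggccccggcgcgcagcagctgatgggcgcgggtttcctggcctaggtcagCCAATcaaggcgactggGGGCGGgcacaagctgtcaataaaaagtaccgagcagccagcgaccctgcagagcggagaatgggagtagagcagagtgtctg
Gfap (chr11:102897151-102897450, minus strand): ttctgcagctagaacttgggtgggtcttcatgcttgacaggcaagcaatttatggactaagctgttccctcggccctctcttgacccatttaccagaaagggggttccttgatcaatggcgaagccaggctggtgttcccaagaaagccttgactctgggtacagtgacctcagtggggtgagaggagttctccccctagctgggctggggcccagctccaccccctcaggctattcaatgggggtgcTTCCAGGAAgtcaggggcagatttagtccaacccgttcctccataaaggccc
RefSeq windows of 7 of the 9 members were searched, giving 8 windows, since Aldoc has 2 starts. Windows of Aqp4 and Sox9 were not used, so the motif counts do not cover these genes. The window listed for Slc1a2 belongs to a start inside the gene. Short motifs were searched on both strands, namely the SOX core ACAATG, the NFI half-site TTGGCA, the STAT motif TTCNNNGAA, the TATA box TATAAA, the CCAAT box CCAAT and the GC box GGGCGG. The NFI half-site and the CCAAT box can overlap and did so in S100b. CCAAT boxes were found in 4 of the 8 windows (37.4% of 32851 windows of the same length) and GC boxes in 4 (35.7%). STAT motifs were found in 3 windows (8.3% of all), those of Slc1a3, Gfap and the second start of Aldoc, and that of Gfap begins 2 bases before the gene start. The TATA box was found in 1 window, that of Slc1a3 (13.6% of all), and the NFI half-site in 2, those of S100b and Aldoc (14.1%). The TATA match in Slc1a3 lies at position -161 from the gene start, on the strand opposite to the gene. The SOX core was found in 0 of the 8 windows and in 12.6% of all windows. These are matches of letters and not measured binding sites.

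Slc1a2, which encodes the transporter responsible for most glutamate uptake in the forebrain, had 254, 258 and 242 FPKM in SI 1, 2 and 3, against 265, 272 and 284 FPKM in Control 1, 2 and 3. Every SI library was below every Control library, by a margin of less than the SD of either group between the nearest pair. The log2 fold change was -0.13 (SE 0.06, 95% interval -0.27 to 0.01, edgeR adjusted p = 0.999), rank 787 of 15169 by p. It was between -0.15 and -0.09 with any 1 library left out and -0.11 without Control 2 and SI 3. The gene lies on chromosome 2 from 102658239 to 102790784 (GRCm38.p6, Entrez gene 20511) and is listed with 3 transcripts. Its mean transcript length, which in the output of RSEM is weighted by the abundance of each transcript, was 11042 to 11073 bases in SI and 11063 to 11069 bases in Control libraries. GENCODE counterparts of the 3 transcripts measure 11595, 2127 and 1957 bases, so the mean length was close to that of the longest transcript in every library.

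Slc1a3, the second uptake transporter, had 103, 113 and 112 FPKM in SI libraries and 104, 123.2 and 117 FPKM in Control libraries. The groups overlapped, with SI 1 and Control 1 both low. The log2 fold change was -0.08 (SE 0.07, 95% interval -0.25 to 0.10), and it was -0.14 without Control 1, the lowest Control library, -0.03 without Control 2, the highest, and -0.04 without Control 2 and SI 3. The ratio of Slc1a2 to Slc1a3 FPKM within a library was 2.46, 2.29 and 2.17 in SI and 2.55, 2.21 and 2.43 in Control libraries. Its mean of 2.31 ± 0.149 in SI and 2.39 ± 0.174 in Control (SD, n = 3 each) did not differ past the threshold (two-sided exact permutation test, p = 0.6; 3 libraries against 3 cannot give a p below 0.1).

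Glul, the enzyme that turns glutamate into glutamine, had 503, 513 and 530 FPKM in SI libraries and 550, 476 and 499 FPKM in Control libraries. The SI values lay inside the range of the Control values. The log2 fold change was 0.02 (95% interval -0.14 to 0.17), the only member above 0, and it was 0.08 without Control 1, -0.03 without Control 2 and -0.05 without Control 2 and SI 3. Of the 50-base windows of its GENCODE transcripts, 14.5% also occur in transcripts of other genes there, mainly the pseudogene Glns-ps1. Whether the reference used for counting held this pseudogene is not stated, and its part in the Glul value was not tested.

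Aqp4, the endfoot water channel, had 15.2, 15.5 and 16.7 FPKM in SI libraries and 16.8, 23.3 and 18.5 FPKM in Control libraries. The groups were apart, but SI 3 and Control 1 nearly met, and Control 2 stood above all others. Aqp4 had the largest difference of the 9 genes, with a log2 fold change of -0.30 (SE 0.11, 95% interval -0.56 to -0.04, edgeR adjusted p = 0.999), rank 282 of 15169 by p. Its log2 fold change was -0.40 without Control 1, -0.16 without Control 2 and -0.20 without Control 2 and SI 3. Control 2 was also the library with the highest level of the endothelial and pericyte markers, which were 0.19 above their 6-library mean in log2 CPM, and of the striatal markers (1.69 above). The part of these in the Aqp4 value was not tested.

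Gfap, the astrocyte filament and a gene that reactive astrocytes induce, had 26.4, 24.1 and 34.1 FPKM in SI libraries and 33.5, 30.9 and 24.9 FPKM in Control libraries. It varied more between SI libraries than any other member, with an SD of 18.6% of the mean, and the groups overlapped. The log2 fold change was -0.08 with a 95% interval from -0.42 to 0.26, which spans both a fold of 0.75 and one of 1.19. It was 0.02 without SI 2, -0.23 without SI 3 and -0.21 without Control 2 and SI 3. Both libraries with the highest Gfap, SI 3 and Control 1, also had the highest levels of mature oligodendrocyte markers, at 0.69 and 0.19 above their 6-library mean in log2 CPM, and the part of this in the Gfap value was not tested. The ratio of Gfap to Aldh1l1 FPKM was 1.58 ± 0.241 in SI and 1.61 ± 0.232 in Control libraries (SD, n = 3 each; two-sided exact permutation test, p = 1.0).

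**Figure D2:**
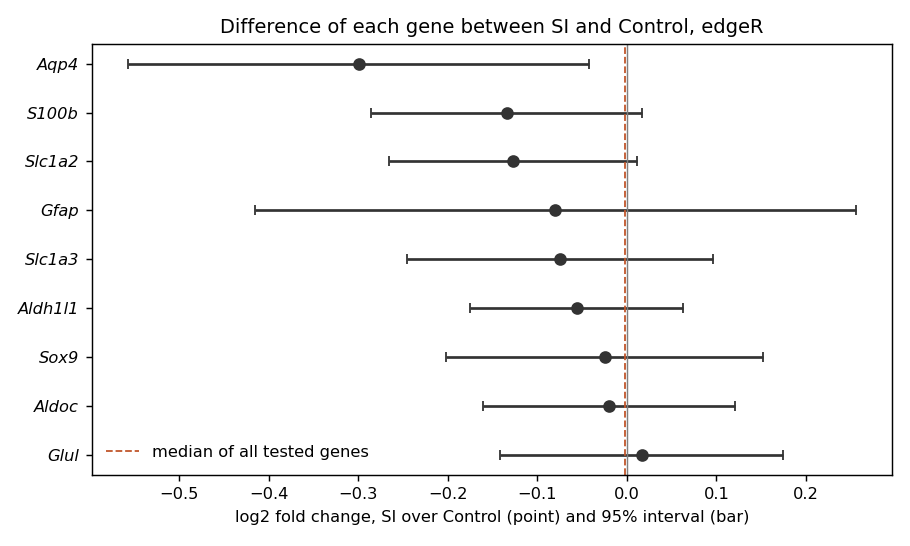
Log2 fold change of SI over Control for the 9 genes (horizontal axis, points) with 95% intervals (bars) from edgeR, ordered from the lowest at the top; the dashed line is the median of all 15169 tested genes. The intervals of 8 genes include 0, and that of Aqp4 runs from -0.56 to -0.04 before adjustment over all genes.

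S100b had 45.3, 42.3 and 49.5 FPKM in SI libraries and 49.3, 52.5 and 48.4 FPKM in Control libraries. The groups overlapped through SI 3, and SI 2 was lowest. The log2 fold change of -0.13 (SE 0.06, 95% interval -0.29 to 0.02, edgeR adjusted p = 0.999) was -0.19 without SI 3, -0.08 without SI 2 and -0.16 without Control 2 and SI 3. The summed level of the 16 mature oligodendrocyte markers, cells that can also carry S100b, was 1599 to 3011 FPKM in SI and 1227 to 2064 FPKM in Control libraries, with 0 markers at 0, and its part in the S100b value was not tested.

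The remaining members were Aldh1l1, Aldoc and Sox9. Aldh1l1 had 17.4, 17.5 and 18.5 FPKM in SI libraries and 18.7, 18.2 and 18.5 FPKM in Control libraries. It was the steadiest member, with a 1.07-fold range over all 6 libraries and a log2 fold change of -0.06 (95% interval -0.18 to 0.06), or -0.09 without Control 2 and SI 3. An antisense gene, Gm15756, covers part of it, and 11% of its exon bases overlap a gene on the other strand, whose reads could not be separated because no source states whether counting used strand. Aldoc had 236, 241 and 247 FPKM in SI libraries and 256, 230 and 246 FPKM in Control libraries, with a log2 fold change of -0.02 (95% interval -0.16 to 0.12). It ran from -0.07 to 0.02 with 1 library left out and was -0.08 without Control 2 and SI 3. None of its 50-base windows occurs in another gene, Aldoa included, for 0% shared. Sox9 had 6.16, 6.19 and 5.56 FPKM in SI libraries and 6.14, 5.84 and 6.22 FPKM in Control libraries, with a log2 fold change of -0.02 (95% interval -0.20 to 0.15). It ran from -0.06 to 0.03 with 1 library left out and was -0.0021 without Control 2 and SI 3. The intervals of these 3 genes leave out a fold below 0.87 and a fold above 1.11.

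Averaged over the 9 genes, log2 CPM relative to the mean of the 6 libraries was -0.06, -0.07 and -0.0036 in SI and 0.05, 0.06 and 0.03 in Control libraries. The groups were apart in this average, with SI 3 close to the mean. It includes Slc1a2 and Aqp4, which were apart on their own, whereas every other member overlapped. How often averages of other sets of 9 genes are apart was not computed, so a shift of the whole set cannot be read from it. In SI 1, 8 of 9 members were below their mean, and in SI 2 it was 6 of 9, whereas SI 3 had 5 above and 4 below. Control 1 and Control 3 each had 7 members above their mean, and Control 2 had 5. Control 2 combined the highest Slc1a3, S100b and Aqp4 with the lowest Glul and Aldoc of the 6 libraries. Summed over the 9 genes, the level was 1206, 1230 and 1255 FPKM in SI and 1300, 1231 and 1262 FPKM in Control libraries, or 1230 ± 24.6 and 1264 ± 34.5 FPKM for SI and Control (SD, n = 3 each). The groups overlapped in this sum, whose log2 difference of -0.04 was -0.07 without Control 2 and SI 3. They were apart in the members' share of counts given above, in which Slc1a2 weighs most.

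**Figure D3:**
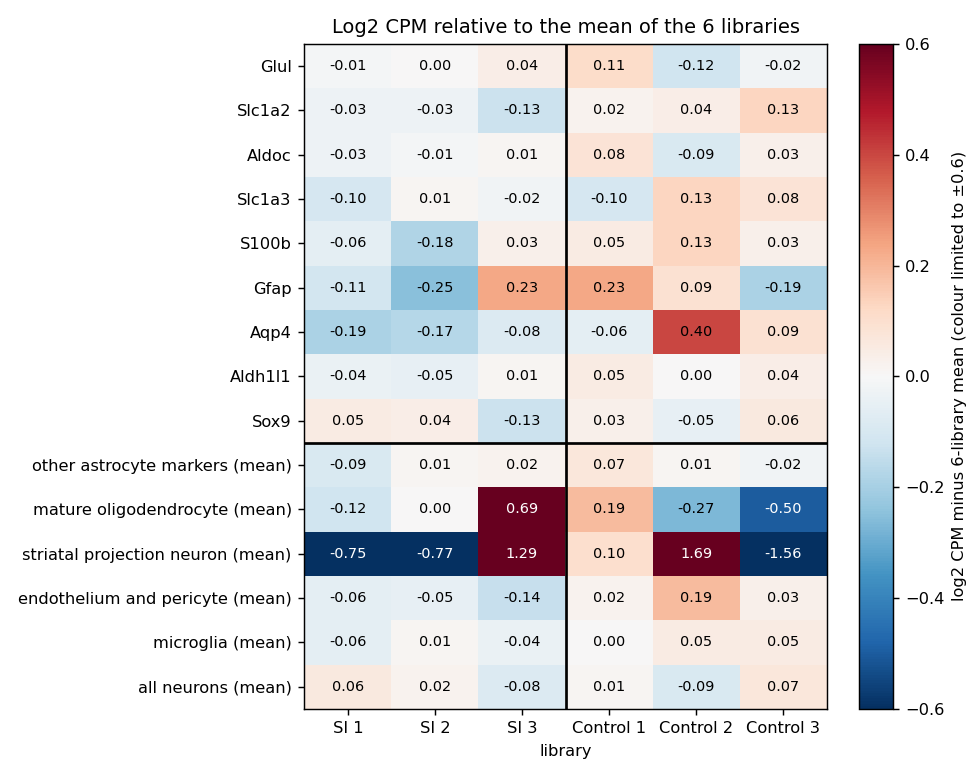
Log2 CPM minus the mean of the 6 libraries (number and colour in each cell, colour limited to ±0.6) for the 9 astrocyte genes (upper rows) and the means of 6 marker lists (lower rows) in SI libraries (left) and Control libraries (right). Aqp4 reaches 0.40 in Control 2, and Gfap is at 0.23 in both SI 3 and Control 1; striatal markers range from -1.56 in Control 3 to 1.69 in Control 2.

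Among all genes with a mean of at least 10 CPM, which are counts scaled to library size by TMM, the 5 whose log2 CPM followed the mean profile of the 9 members most closely over the 6 libraries were Sfxn5, Rc3h1, Mtfr1l, Abhd3 and Larp4. Pearson's r was 0.988 for Sfxn5, which encodes a mitochondrial carrier, and 0.98 to 0.985 for the other 4, with a Spearman rho of 0.943 for each. They were picked as the highest of 9998 genes compared over 6 libraries, of which 68 had an r of at least 0.9, and the values describe these libraries only. Sfxn5 had 138, 139 and 147 CPM in SI libraries and 152, 156 and 151 CPM in Control libraries.

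Wider lists of genes around uptake were read in the same way, and 0 genes of any list passed the adjusted threshold. In the glutamate and glutamine cycle, 8 of 16 tested genes were higher and 8 lower, with a median log2 fold change of 0.0013 (-0.02 to 0.02 with 1 library left out, 0.0031 without Control 2 and SI 3). Slc7a11, the cystine-glutamate exchanger that releases glutamate from astrocytes, had the smallest p of this list, with 3.81, 3.83 and 2.94 FPKM in SI libraries and 3.85, 5.55 and 5.25 FPKM in Control libraries. Its log2 fold change was -0.47 (SE 0.16, edgeR adjusted p = 0.999), and Control 1 almost touched the SI values. The glutamine transporter gene Slc38a2 had 37.1 ± 2.09 FPKM in SI and 32.6 ± 4.3 FPKM in Control libraries. The vesicular glutamate transporter gene Slc17a7, the most abundant of the list, had 596 ± 60.2 FPKM in SI and 593 ± 65.5 FPKM in Control libraries.

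Of the paralogs of the members, 12 of 21 tested genes were higher and 9 lower, with a median of 0.03, which ran from -0.02 to 0.03 with 1 library left out and was 0.002 without Control 2 and SI 3. Slc1a6, a neuronal transporter best known from Purkinje cells, had 3.17 ± 0.182 FPKM in SI and 3.71 ± 0.453 FPKM in Control libraries, and Slc1a7, the retinal transporter, 0.31 ± 0.0557 and 0.187 ± 0.0666 FPKM in SI and Control libraries. Slc1a1, the widespread neuronal transporter, was picked after its values were seen and had 32.9 ± 1.27 FPKM in SI and 32.4 ± 1.54 FPKM in Control libraries, below both astrocyte transporters in every library. Aldoa, the aldolase found in most tissues, had 1047, 1042 and 1035 FPKM in SI and 995, 968 and 999 FPKM in Control libraries. Its groups were apart in the direction opposite to that of Slc1a2 and Aqp4, with a log2 fold change of 0.07 (edgeR adjusted p = 0.999).

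Genes that sustain uptake, such as the sodium pump subunit Atp1b2 and the gap junction gene Gja1, were higher in 5 and lower in 9 of 14 tested genes, with a median of -0.03 (-0.04 without Control 3, -0.0097 without Control 1, -0.04 without Control 2 and SI 3). Atp1b2 had 539 ± 15.6 CPM in SI and 575 ± 37.8 CPM in Control libraries, Gja1 133 ± 5.07 CPM in SI and 141 ± 5.91 CPM in Control libraries, and the glucose transporter gene Slc2a1 132 ± 10.1 CPM in SI and 120 ± 9.77 CPM in Control libraries. Genes of the complex that anchors Aqp4 in the endfoot were higher in 2 and lower in 5 of 7, with a median of -0.03 (-0.08 without Control 3, -0.0002 without Control 2, -0.03 without Control 2 and SI 3). Dystroglycan, Dag1, had 129 ± 4.99 CPM in SI and 135 ± 8.93 CPM in Control libraries. Agrn, the most abundant of this list, went the other way, with 219 ± 9.42 CPM in SI and 211 ± 8.9 CPM in Control libraries.

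Of 30 other astrocyte markers 24 were lower and 6 higher, with a median log2 fold change of -0.05. The median was -0.08 without SI 3, -0.01 without SI 1 and -0.07 without Control 2 and SI 3. An unadjusted p under 0.05 was found for 4 of the 30, all lower, against 2% of all tested genes in that direction and 3.53% in either. The list was chosen with earlier results of these data known, so this share cannot be read as an excess over all genes. Dio2, the deiodinase that activates thyroid hormone, had 88, 97.2 and 90.4 CPM in SI and 110, 111 and 101 CPM in Control libraries, so the groups were apart (log2 fold change -0.23, SE 0.06, edgeR adjusted p = 0.999). Fjx1, a gene of the four-jointed family, had 58, 59.7 and 55.2 CPM in SI and 61.1, 67.8 and 68.3 CPM in Control libraries. Ppp1r3c, which directs phosphatase to glycogen, had 29.9 ± 1.06 CPM in SI and 36 ± 4.86 CPM in Control libraries with overlapping groups. Among 15 astrocyte transcription factors 7 were higher and 8 lower, with a median of -0.0049 (-0.01 to 0.02 with 1 library left out, -0.001 without Control 2 and SI 3). In that list the Notch effector gene Hes1 was at 8.56 ± 0.304 CPM in SI and 10.3 ± 0.908 CPM in Control libraries, and Stat3 at 53.1 ± 1.41 CPM in SI and 49.6 ± 2.26 CPM in Control libraries.

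Genes that reactive astrocytes induce were scarce: 15 of 22 passed the filter on low counts, so the counts that follow leave out 7. They were higher in 6 and lower in 9, with a median of -0.13. The median was -0.19 without Control 2, -0.07 without SI 3, -0.04 without Control 1 and -0.06 without Control 2 and SI 3. Ceruloplasmin, Cp, had 12.2, 11.5 and 10.9 CPM in SI and 13.7, 13.4 and 13.1 CPM in Control libraries, with the groups apart (log2 fold change -0.22, SE 0.08, edgeR adjusted p = 0.999). Vim, a filament protein that accompanies Gfap, had 30.4 ± 2.67 CPM in SI and 27 ± 2.45 CPM in Control libraries.

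**Figure D4:**
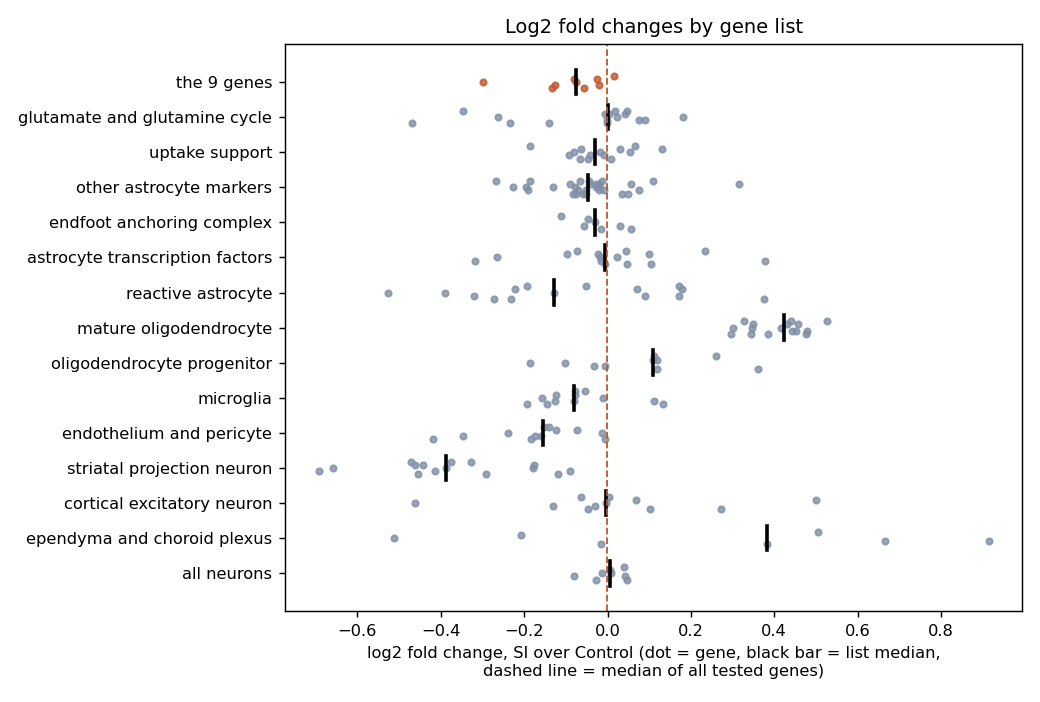
Log2 fold change of SI over Control (horizontal axis) for every tested gene of the 9 genes and the lists described (dots), paralogs left out, with the list median (black bars) and the median of all tested genes (dashed line). The 9 genes have a median of -0.08, between that of mature oligodendrocyte markers (0.42) and that of striatal projection neuron markers (-0.39).

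Marker lists of other cell types are given beside the astrocyte genes, and their part in the values above was not tested. Mature oligodendrocyte markers were higher in 16 of 16 tested genes, with a median of 0.42, which was 0.68 without Control 1, 0.09 without SI 3 and 0.03 without Control 2 and SI 3. Oligodendrocyte progenitor markers were higher in 6 of 10 (0.11, with 0.16 without SI 1, -0.05 without SI 3 and -0.0086 without Control 2 and SI 3). Endothelial and pericyte markers were lower in 12 of 12 (median -0.16, with -0.10 without Control 2 and -0.09 without Control 2 and SI 3), with a summed level of 113 to 121 FPKM in SI and 124 to 142 FPKM in Control libraries. Microglial markers were lower in 10 of 12 (-0.08, with -0.12 without Control 1, -0.05 without SI 1 and -0.09 without Control 2 and SI 3), at 199 to 214 FPKM in SI and 211 to 227 FPKM in Control libraries. Striatal markers were lower in 15 of 15 (-0.39), but their median was 0.84 without Control 2, -1.56 without SI 3 and -0.30 without both. Cortical excitatory neuron markers, which check for cortex but not for its medial prefrontal part, were higher in 5 and lower in 6 of 11. Their median was -0.0035, with -0.11 without Control 2, 0.08 without SI 3 and -0.04 without both. Their sum was 2803 to 3164 FPKM in SI and 2707 to 3206 FPKM in Control libraries. Single genes of this list went opposite ways. Rorb was lower in every SI library (log2 fold change -0.46, edgeR adjusted p = 0.999). Fezf2 was higher in SI with overlapping groups (log2 fold change 0.50, edgeR adjusted p = 0.999). Ependymal and choroid plexus markers, of which 7 of 10 were tested, had a median of 0.38 (0.51 without SI 1, -0.02 without SI 3, 0.03 without Control 2 and SI 3) and a sum of only 7.81 to 18.5 FPKM in SI and 6.12 to 7.33 FPKM in Control libraries. Markers shared by all neurons had a median of 0.0068 (-0.05 without Control 2, 0.04 without SI 3, 0.02 without both). No marker of these lists was at 0 in all libraries.

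**Figure D5:**
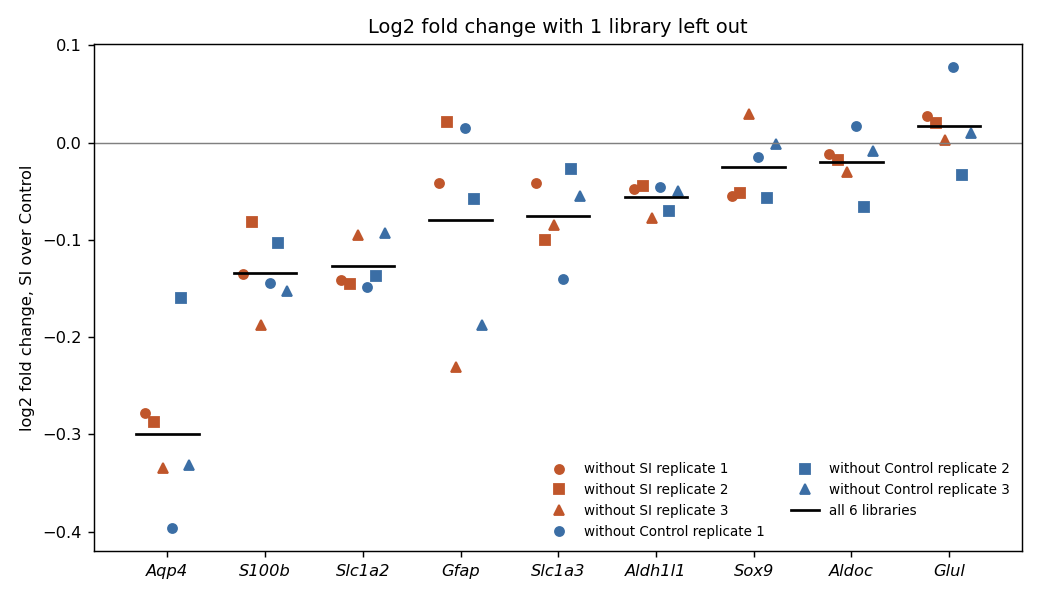
Log2 fold change of SI over Control (vertical axis) of each gene with 1 library left out (points, coloured by the group of the library left out) and with all 6 libraries (black lines), from edgeR. The Aqp4 value is -0.16 without Control 2 and -0.40 without Control 1, and Gfap, Sox9, Aldoc and Glul cross 0.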

How the data were processed

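Total RNA of 6 libraries was sequenced on a BGISEQ-500 with 50-base reads, per the labels' protocols. Per the submitters' processing notes, the tools were HISAT, Bowtie2 and RSEM and the build mm10; versions and order are not stated. The authors deposited, per library, expected counts (estimated reads per gene, not normalized, shared among genes a read matches), FPKM and gene length, per the file headers. A series table whose 6 columns carry unlabelled codes was not used.

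A gene absent from 1 table counted as 0. The entry without a gene symbol, at most 0.000947% of counts, was left out. Expected counts were rounded and tested with edgeR 4.0.16 (R 4.3.3): filterByExpr (minimum count 10, minimum total 15), TMM factors, quasi-likelihood F-test without covariates, Benjamini-Hochberg over 15169 genes at 0.05. Standard errors come from the fold change and F statistic, and intervals are at 95%. The fit was tested on simulated data. Library pairs differed by a chi-square of 2.89 to 20.4 per gene, so all 6 were kept. The members and the 15 other lists were chosen with earlier results of these data known. Genes named from each list were taken from the 3 of smallest p and the most abundant. Alternatives were DESeq2 1.42.0, limma 3.58.1 on counts and on log2(FPKM + 1 or 0.1), upper-quartile factors, no filter, a replicate block and libraries left out. Intervals cover these libraries only.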

Additional observations from a re-analysis of the deposited data

How the results depend on the processing

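With edgeR, 0 genes were called higher and 0 lower in SI (535 at an unadjusted p under 0.05). The limma-voom fit called 0 (536). DESeq2 called 1 gene higher (306 at an unadjusted p under 0.05), Fkbp5, which was named after its values were seen and is not a member. In each of 15 alternative settings 0 members were called. Slc1a2, Slc1a3, Aqp4, Aldh1l1 and S100b kept a negative log2 fold change in all 15. The 6 exceptions, of 135 member values, were Glul at -0.0334 without Control 2 and -0.0481 without Control 2 and SI 3, Gfap at 0.0208 without SI 2 and 0.0151 without Control 1, Aldoc at 0.0172 without Control 1 and Sox9 at 0.0297 without SI 3; these fits hold fewer libraries. With any 1 of the 6 libraries, or both Control 2 and SI 3, left out, log2 fold changes ranged from -0.0481 to 0.0776 for Glul, -0.231 to 0.0208 for Gfap, -0.0771 to 0.0172 for Aldoc and -0.0566 to 0.0297 for Sox9. The median over the 9 genes ranged from -0.0924 to -0.0454, and the log2 difference of the ratio of Gfap to Aldh1l1 from -0.1504 to 0.0662, above 0 also without Control 1 (0.0533) and Control 2 (0.0139). The summed level differed by -0.0396 in log2 from FPKM and by -0.0761 from CPM, in which the long gene Slc1a2 weighs more. Same-numbered libraries did not deviate together over all genes (correlations 0.059, -0.345 and -0.586), and the labels name no pairing. The highest correlation, 0.519, was between SI 3 and Control 2, the libraries with the highest striatal markers. With 3 libraries a group and this difference among them, a pairing of smaller effect could not be seen. With the replicate block 0 genes were called, 331 had an unadjusted p under 0.05, and Aqp4 was at -0.29. Differences inside the printed intervals cannot be resolved with 3 libraries a group.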
